A study of Triticum aestivum with 36 samples.

Results

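The transcripts of developing grain of the Indian bread wheat (Triticum aestivum) variety C306 were compared between 14 and 7 days after anthesis (DAA). The comparison rests on 6 of the 36 arrays of the series, 3 of C306 at 14 DAA and 3 of C306 at 7 DAA, chosen by their titles, and on all 61179 probe sets of the Affymetrix wheat array other than its 111 control probe sets. The whole series held 4 varieties, C306, Lok1, Sonalika and WH291, at 3 stages, 7, 14 and 28 DAA, with 3 biological replicates each. C306 is labelled a good variety for chapatti, an unleavened flat bread, and Sonalika, the variety set beside it here, is labelled a poor one. The labels give no treatment. Plants were grown in the field, main spikes were tagged at anthesis, and RNA was taken from whole seeds, so that fewer cells of a type and less RNA per cell cannot be told apart.

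A wheat grain passes through overlapping phases. In the first days the nuclei of the endosperm divide and become walled into cells while the maternal pericarp around it is green. Grain filling follows, in which endosperm cells make starch and the storage proteins of flour: the glutenins and gliadins, which are prolamins and form gluten, together with globulins and small inhibitor proteins. The embryo and the aleurone, the outer living layer of the endosperm, then load oil bodies and the proteins that protect them through drying.

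Levels are log2 values that the submitters had centred on each probe set's median over the 36 arrays, so that 0 is that median and levels of different probe sets cannot be set against each other. Differences are 14 DAA minus 7 DAA from limma, which fits a linear model to each probe set and moderates its spread with that of all probe sets. A probe set is called when its p-value, adjusted by Benjamini-Hochberg over the 61179 probe sets, is below 0.05. Cyclic loess, an alternative normalization that draws the differences between arrays toward 0 at each mean level, is named wherever it turned a direction. It was run on these centred values. Its mean level is therefore a mean deviation from a probe set's own median and not an expression level, which limits what its turns can show.

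The C306 arrays of 14 DAA were not alike. Replicate 1 correlated with the 7 DAA arrays at 0.69, 0.70 and 0.61 over all probe sets, replicate 2 at 0.21, 0.23 and 0.11, and replicate 3 at -0.07, -0.06 and -0.09. Along a line on which the mean of Sonalika at 7 DAA is 0 and the mean of Sonalika at 28 DAA is 1, the C306 arrays lay at 0.107, 0.117 and 0.0533 at 7 DAA, at 0.332, 0.58 and 0.652 at 14 DAA and at 0.886, 0.892 and 0.894 at 28 DAA. Replicate 1 of 14 DAA thus lay between the 7 DAA arrays and the other arrays of its own group, while Sonalika at 14 DAA lay at 0.65, 0.706 and 0.715. Replicate 3 of C306 at 7 DAA was the earliest of its group on that line. The median standard deviation within the group was 0.206 over all probe sets at 14 DAA and 0.153 at 7 DAA. Array controls also differed: poly-A spikes, RNA added before labelling, had medians over their probe sets of -1.51, -1.18 and -0.74 at 14 DAA, against 1.20, 0.62 and 0.77 at 7 DAA, and the 18S ribosomal RNA probe set stood at -1.60, -1.83 and -1.93 at 14 DAA, against -5.45, -4.10 and -4.44 at 7 DAA. Hybridization spikes, added after labelling, ran the other way, with medians of 0.68, 0.23 and 0.89 at 14 DAA, against -0.80, 0.02 and -0.23 at 7 DAA. Among control probe sets for housekeeping genes, the mean at 14 DAA minus that at 7 DAA was 0.96 and 0.36 for the 5′ and 3′ ends of ubiquitin, -0.49 and -0.46 for those of elongation factor 1-alpha, 0.30 and -0.14 for those of actin and -0.17 and -0.14 for those of GAPDH. The part of these controls in the results was not tested.

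**Figure D1:**
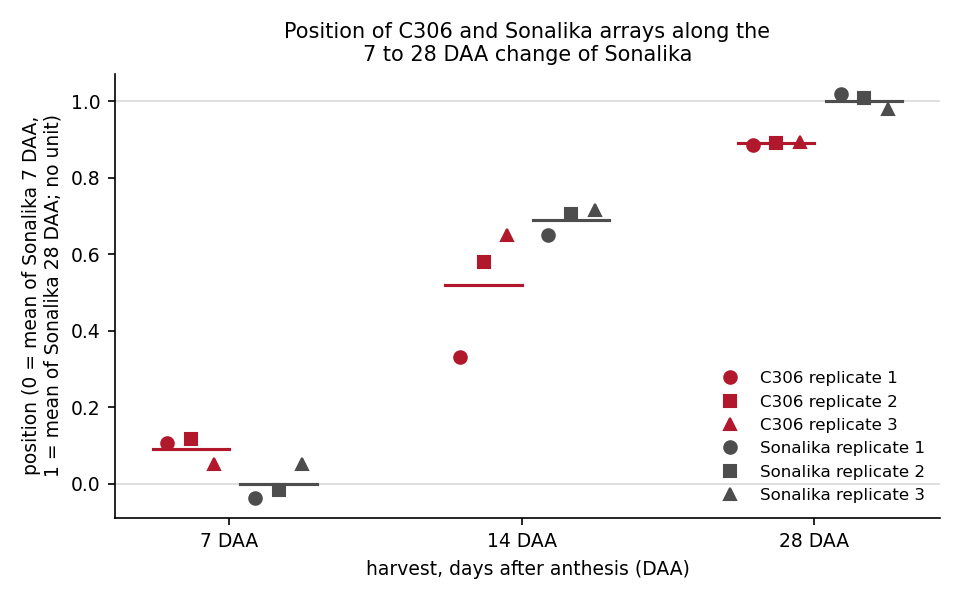
Position of each C306 and Sonalika array (points, by replicate; bars are means of 3) along the change from the mean of Sonalika at 7 DAA (0) to its mean at 28 DAA (1), by harvest day. Sonalika defines the scale. The C306 arrays of 14 DAA spread from 0.332 to 0.652, those of 28 DAA from 0.886 to 0.894.

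Between the stages 10456 probe sets (17.1%) were called, of which 4180 (6.83%) were higher at 14 DAA and 6276 (10.3%) were lower. Of the calls, 2277 (3.72%) were higher and 2826 (4.62%) lower by at least 2-fold, and 362 (0.592%) were higher and 160 (0.262%) lower by at least 10-fold. Calls of lower level were thus more numerous in all, and calls of higher level more numerous among the 10-fold changes. Differences ran from -7.93 to 9.58, with a median of -0.01 and a median standard error of 0.18. The 3 arrays of 14 DAA all lay above the 3 of 7 DAA in 8776 probe sets (14.3%) and all below them in 10925 (17.9%). Among the 362 probe sets that rose at least 10-fold, which this same contrast chose, the median level was -2.86, 0.01 and 0.67 in the 14 DAA arrays, against -5.40, -5.38 and -5.82 in the 7 DAA arrays, and 0.84, 0.85 and 0.87 at 28 DAA. Those that fell at least 10-fold stood at 1.76, -0.05 and -0.23 at 14 DAA, against 5.14, 4.92 and 5.51 at 7 DAA. In both sets replicate 1 of 14 DAA was the array nearest to the 7 DAA levels. Without replicate 2 of 14 DAA the calls of higher level numbered 2619, and without replicate 1 the 10-fold calls of lower level numbered 277.

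A name was available for 334 probe sets. Of them 81 (24.3%) were higher and 46 (13.8%) were lower at 14 DAA, against 6.83% and 10.3% of all probe sets, and 269 fell into lists by function. These shares of all probe sets also stand beside the list counts below. For groups without overlap the shares were 14.3% higher and 17.9% lower. Without replicate 2 of 14 DAA 52 of the 334 were higher. After cyclic loess 48 of the 334 were higher and 52 lower, and their median difference turned from 0.4 to -0.14. The study's own table of 236 probe sets, which gives a function for 159 of them, had been selected on these same arrays for large changes. Its 83 higher (35.2%) and 17 lower (7.2%) members are therefore not independent evidence of a direction. That table held every member of the HMW glutenin, alpha-gliadin, globulin, hardness, thionin, protease and both smaller inhibitor lists. It also held 10 of 11 LMW glutenin, 18 of 20 gamma- and omega-gliadin, 13 of 15 avenin-like and 9 of 11 regulator probe sets. For these lists the share of all probe sets is not a like background.

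**Figure D2:**
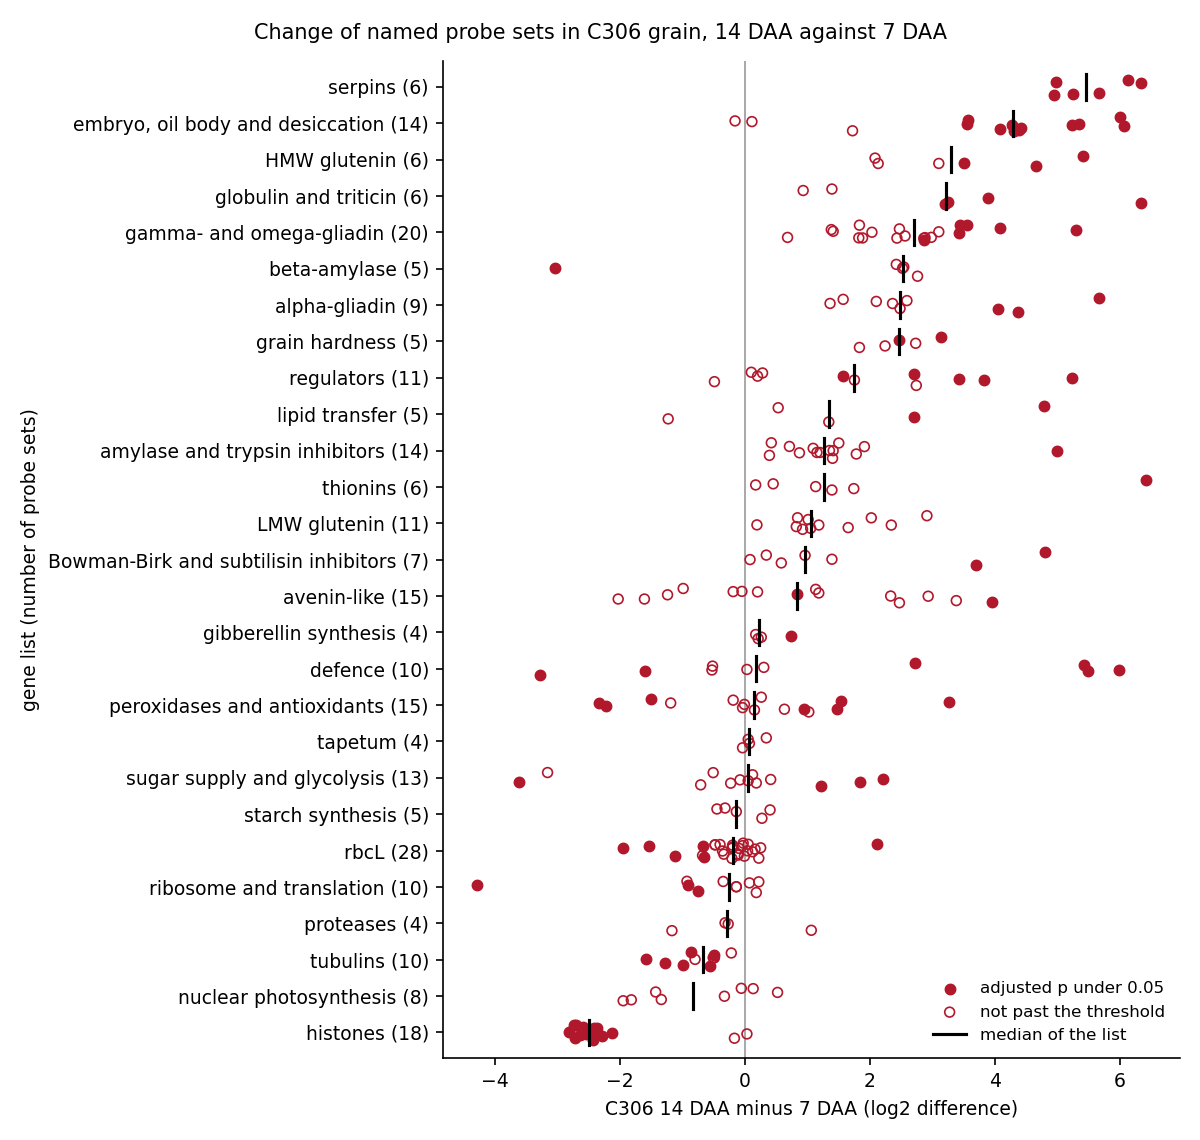
Difference between 14 and 7 DAA in C306 (log2, horizontal axis) of each named probe set, by list (rows, with the number of probe sets), filled where the adjusted p was below 0.05; black bars are list medians. All 6 serpins were called higher and 16 of 18 histone probe sets lower, while none of the 5 starch synthesis probe sets was called. After cyclic loess normalization the medians of the LMW glutenin, alpha-gliadin, avenin-like, amylase inhibitor, beta-amylase, thionin, embryo and defence lists turned negative and that of starch synthesis turned positive.

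Genes of dividing tissue were lower at 14 DAA. Of 18 probe sets for histones H2A and H2B, the proteins that package newly copied DNA, 16 fell and none rose, with a list median of -2.49. All 16 had 3 arrays at 14 DAA below the 3 at 7 DAA. The histone wcH2A-9 stood at 0.25, -0.17 and -0.21 at 14 DAA, against 2.62, 2.61 and 2.79 at 7 DAA. Its level was 6.57-fold lower at 14 DAA (difference -2.71, SE 0.38, adjusted p = 9.76e-06), and no array of one stage overlapped the other. Histone wcH2A-2 had 0.86, 0.04 and 0.05 at 14 DAA, against 3.03, 3.32 and 3.07 at 7 DAA (difference -2.82, adjusted p = 1.03e-05). For histone wcH2B-8 the levels were -0.30, 0.03 and 0.29 at 14 DAA and 2.88, 2.62 and 2.72 at 7 DAA (difference -2.73, adjusted p = 0.00012). The 2 probe sets that were not called, 1 for wcH2B-8 and 1 for wcH2A-3, differed by -0.17 and 0.03. In the median over the list the histones were at 2.54, 2.47 and 2.61 at 7 DAA, at -0.01, 0.03 and 0.16 at 14 DAA and at -3.78, -3.82 and -4.03 at 28 DAA. Replicate 1 of 14 DAA did not stand apart from its group here. Of 10 tubulin probe sets, for the subunits of microtubules, 6 fell, none rose, and all 10 differences were negative (median -0.68). Beta-tubulin 1 stood at -0.41, -0.65 and -0.05 at 14 DAA, against 1.06, 1.12 and 1.45 at 7 DAA (difference -1.58, SE 0.36, adjusted p = 0.00202). The tubulin calls numbered 3 without replicate 1 or replicate 2 of 14 DAA or without replicate 3 of 7 DAA, whereas 16 histone probe sets were called lower in every leave-one-out fit.

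Markers of the green pericarp gave no call as a list. None of 8 probe sets for nuclear photosynthesis genes passed limma's adjusted test (lowest adjusted p = 0.0587), nor the analysis of variance without moderation, while 1 was higher and 3 were lower at an unadjusted p below 0.05. The median difference was -0.83. Phosphoribulokinase (PRK), an enzyme of the Calvin cycle, stood at 1.66, -1.11 and -1.24 at 14 DAA, against 1.27, 0.95 and 2.55 at 7 DAA. The Rieske protein of the cytochrome b6f complex (petC) had 1.74, -1.12 and -3.12 at 14 DAA, against 0.79, 0.51 and 2.06 at 7 DAA. In both genes replicate 1 of 14 DAA lay among the 7 DAA arrays and the other replicates lay below all of them. Without that replicate 4 of the 8 were called lower (11.1% of all probe sets), and without replicate 2 of 7 DAA 1 was. The chloroplast gene rbcL, for the large subunit of Rubisco, had 28 probe sets, of which 5 fell and 1 rose (median -0.20). Without replicate 3 of 14 DAA 1 fell and 0 rose, without replicate 2 of 14 DAA or replicate 3 of 7 DAA 3 fell, and without replicate 2 of 7 DAA 0 rose. In the fit without replicate 1 of 14 DAA 7 fell.

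Of 61 probe sets for storage proteins of the prolamin classes, 14 were called higher at 14 DAA and none lower (24 and 0 at an unadjusted p below 0.05, 13 and 0 in the analysis of variance). In 48 the 3 arrays of 14 DAA lay above the 3 of 7 DAA (14.3% of all probe sets did). The study's table held 56 of the 61, and 134 of its 236 probe sets were higher without overlap. The difference was positive in 55, and its median was 2.13 on the log2 scale with the deposited values and -1.36 after cyclic loess normalization. In the median over the 61, the levels were 1.01, 1.03 and 0.14 at 14 DAA, against -0.58, -0.40 and -2.45 at 7 DAA, with replicate 3 of 7 DAA the lowest array. The call count varied with the arrays in the fit. One array of Sonalika at 7 DAA, replicate 3, stood at -1.98 in this median while the other replicates stood at -7.55 and -6.97. With only the 9 C306 arrays in the fit 45 were called higher (6.58% of all probe sets), with only the 6 arrays compared 25 (3.99%), without the Sonalika array 19, without replicate 1 of 14 DAA 9 (7.99%), and without replicate 2 of 14 DAA or replicate 3 of 7 DAA 6.

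By class, 3 of 6 high-molecular-weight (HMW) glutenin probe sets rose (median 3.30), none of 11 low-molecular-weight (LMW) glutenin probe sets was called (median 1.05, and -2.08 after cyclic loess), 3 of 9 alpha-gliadin probe sets rose (median 2.48, and -1.53 after cyclic loess), 6 of 20 for gamma- and omega-gliadins rose (median 2.71, with 3 calls without replicate 1 of 14 DAA and 1 call without its replicate 2 or replicate 3 of 7 DAA) and 2 of 15 for avenin-like proteins rose (median 0.83, and -1.60 after cyclic loess, with 1 call without replicate 1 or 2 of 14 DAA or replicate 3 of 7 DAA). HMW glutenin subunits, the proteins that link into the long polymers of gluten, included an unnumbered subunit, which stood at 0.59, 1.84 and 0.16 at 14 DAA, against -4.27, -3.41 and -5.94 at 7 DAA. Its level was 42.4-fold higher at 14 DAA (difference 5.41, SE 1.28, adjusted p = 0.0032). The truncated subunit 1By9 rose by 4.65 (adjusted p = 0.00235), and subunit Dx5, with 0.32, 0.45 and -0.15 at 14 DAA against -1.47, -1.25 and -3.04 at 7 DAA, was not called (adjusted p = 0.229) although its groups did not overlap. An alpha-gliadin had 0.85, 1.30 and 0.10 at 14 DAA, against -4.01, -3.57 and -7.15 at 7 DAA (difference 5.66, SE 1.26, adjusted p = 0.00184). A gamma-gliadin had 0.42, 0.64 and 0.22 at 14 DAA, against -4.03, -3.62 and -6.97 at 7 DAA (difference 5.30, SE 1.26, adjusted p = 0.00338). In each of these genes replicate 3 of 7 DAA was the lowest array. After cyclic loess the differences of 1By9, Dx5, the alpha-gliadin and the gamma-gliadin were negative (-0.52, -2.15, -0.41 and -1.09). The alpha-gliadin and gamma-gliadin probe sets that the study measured by RT-PCR were other ones, and neither was called. They differed by 2.1 (adjusted p = 0.358) and 2.88 (adjusted p = 0.14), and by -2.9 and -0.84 after cyclic loess. Of the 11 LMW glutenin probe sets, none passed in limma or in the analysis of variance, 1 was higher at an unadjusted p below 0.05, and 9 had groups that did not overlap. One LMW glutenin, the probe set with the largest difference of the list, stood at 1.46, 1.54 and 0.15 at 14 DAA, against -1.21, -1.12 and -3.25 at 7 DAA (adjusted p = 0.101, difference 2.91 and -0.71 after cyclic loess), and with only the 9 C306 arrays 8 of the 11 were called higher. A gliadin/avenin-like protein had a negative difference without a call, at 2.93, 1.60 and -1.53 at 14 DAA and 3.32, 3.45 and 2.32 at 7 DAA. Many probe sets of these families carry a suffix that marks probes shared with other transcripts, so members of a family cannot be separated with certainty, and 3 of 16 prolamin probe sets without such a suffix were called higher.

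**Figure D3:**
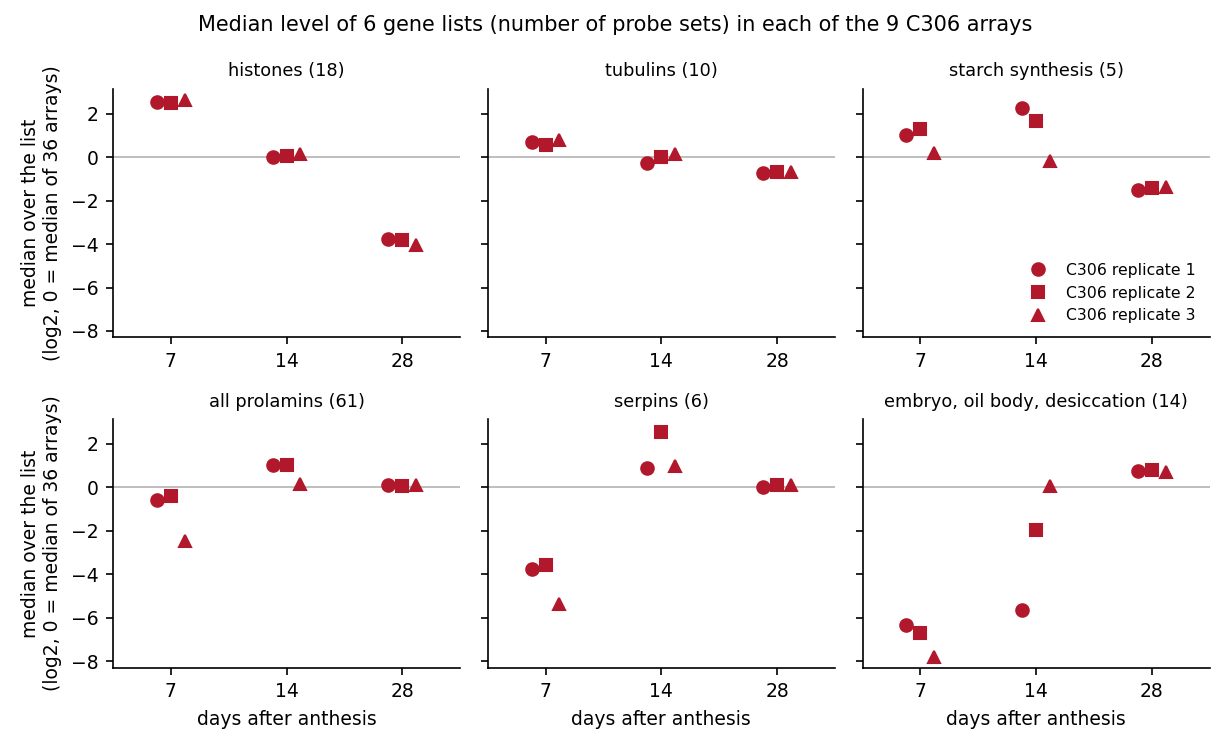
Median level of 6 gene lists in each of the 9 C306 arrays (points by replicate; vertical axis log2 with 0 at each probe set's median over 36 arrays) at 7, 14 and 28 DAA. Histones lay between -0.01 and 0.16 at 14 DAA, whereas the embryo and desiccation list ran from -5.66 to 0.05 there. After cyclic loess the 14 minus 7 DAA median of the prolamin and embryo lists turned negative and that of starch synthesis turned positive.

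Among other storage proteins, 4 of 6 globulin and triticin probe sets rose (median 3.22), and 1 did without replicate 1 or 2 of 14 DAA or replicate 3 of 7 DAA. The globulin-1 S allele, a vicilin-like globulin of embryo and aleurone in cereals, stood at -1.76, 0.00 and 0.49 at 14 DAA, against -6.11, -5.58 and -8.59 at 7 DAA. Its level was 80.8-fold higher at 14 DAA (difference 6.34, SE 0.91, adjusted p = 1.41e-05). Triticin, a legumin-like globulin of the endosperm, had 0.88, 1.26 and 0.16 at 14 DAA, against -2.23, -2.28 and -4.87 at 7 DAA (difference 3.89, and -1.0 after cyclic loess, adjusted p = 0.0253). The 19 kDa globulin rose by 3.24 (adjusted p = 0.0327). The calls of triticin and the 19 kDa globulin were lost without replicate 1 of 14 DAA (adjusted p = 0.051 and 0.0648), without its replicate 2 (0.092 and 0.122) and without replicate 3 of 7 DAA (0.154 and 0.159), and that of the globulin also without replicate 2 of 7 DAA (0.0501).

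Genes of grain hardness, the puroindolines and grain softness proteins that sit on starch granules, were all higher at 14 DAA without overlap in 5 of 5 probe sets, and 2 were called (median 2.47). Of all probe sets 14.3% were higher without overlap and 6.83% were called higher. All 5 were in the study's table, in which 134 of 236 were higher without overlap and 35.2% were called higher. Puroindoline a stood at 0.01, -0.43 and 1.94 at 14 DAA, against -2.09, -1.25 and -2.56 at 7 DAA (difference 2.47, SE 0.69, adjusted p = 0.0118). A puroindoline-like protein had 3.00, 3.40 and 1.36 at 14 DAA, against 0.09, -0.08 and -1.68 at 7 DAA (difference 3.14, adjusted p = 0.0159), and was at -0.84 at 28 DAA. Puroindoline b had 0.50, 0.95 and 0.72 at 14 DAA, against -0.57, -0.47 and -2.28 at 7 DAA, and was not called (adjusted p = 0.347, difference 1.83 and -0.88 after cyclic loess). Both calls were lost without replicate 3 of 7 DAA (adjusted p = 0.0652 for puroindoline a and 0.0992 for the puroindoline-like protein), that of puroindoline a also without replicate 3 of 14 DAA (0.119) and that of the puroindoline-like protein also without replicate 2 of 14 DAA (0.0875).

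Serpins, inhibitors of proteases that make up an abundant albumin fraction of the grain, rose in 6 of 6 probe sets, with differences of 4.95 to 6.34 (median 5.45). Serpin-Z2B stood at -0.43, 3.07 and 1.07 at 14 DAA, against -4.79, -4.97 and -5.55 at 7 DAA. Its level was 81.1-fold higher at 14 DAA (difference 6.34, SE 1.19, adjusted p = 0.000338). The serpin WSZ1b had 1.78, 3.08 and 0.80 at 14 DAA, against -3.79, -3.62 and -5.29 at 7 DAA (difference 6.12, adjusted p = 0.000264). No serpin array of 14 DAA overlapped one of 7 DAA, and all 6 calls stood without any single array of the 6, while 5 of them stood after cyclic loess. At 28 DAA the list was at 0.04, 0.13 and 0.13, against 0.89, 2.53 and 1.00 at 14 DAA.

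Smaller inhibitors and thionins held a few large rises among many members without a call. In the amylase and trypsin inhibitor family, which acts on digestive enzymes of insects, the median difference was 1.27, and -1.29 after cyclic loess. Only 1 of its 14 probe sets rose, a share near the 6.83% of all probe sets. All 14 were in the study's table, in which 35.2% rose. That member, PUP88, stood at -0.31, 1.69 and 1.27 at 14 DAA, against -3.31, -3.19 and -5.83 at 7 DAA (difference 4.99, SE 1.05, adjusted p = 0.00104). Of 7 Bowman-Birk and subtilisin inhibitors, 2 rose (median 0.96). The Bowman-Birk type trypsin inhibitor WTI had 4.42, 4.72 and 3.02 at 14 DAA, against 1.07, 1.13 and -1.09 at 7 DAA (difference 3.69, adjusted p = 0.00883), a call lost without replicate 3 of 7 DAA (0.0737). A trypsin inhibitor rose by 4.80 (adjusted p = 0.000855). The type V thionin, of a family of small antimicrobial peptides, had the largest rise of any named probe set, 85.6-fold, with -0.47, 1.26 and 0.27 at 14 DAA, against -5.12, -5.18 and -7.90 at 7 DAA (difference 6.42, SE 0.97, adjusted p = 2.78e-05). The list median of the 6 thionins was 1.26, and -0.55 after cyclic loess. The other 5 probe sets, all for purothionins, differed by 0.17 to 1.74 and none was called, although 2 had groups without overlap.

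**Figure D4:**
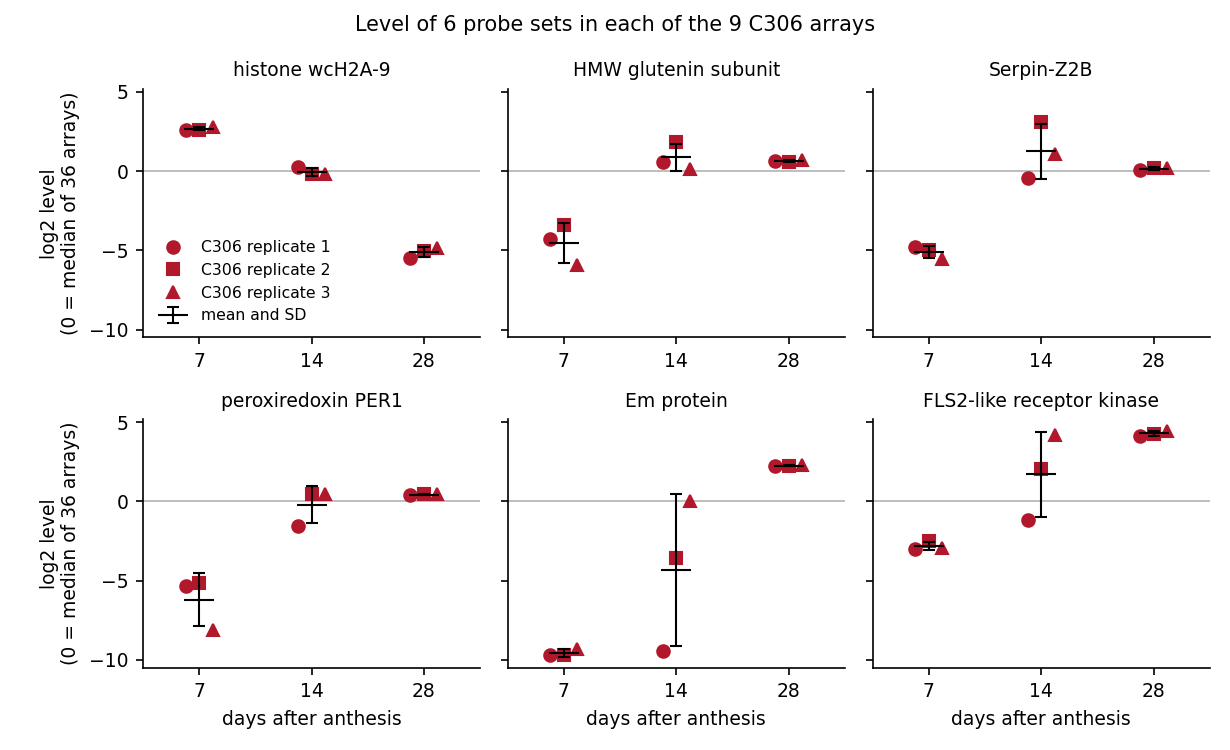
Level of 6 probe sets in each of the 9 C306 arrays (points by replicate, black bars mean and SD of 3; vertical axis log2 with 0 at the median of 36 arrays) at 7, 14 and 28 DAA. Histone wcH2A-9 lay between -0.21 and 0.25 at 14 DAA, whereas the Em protein ran from -9.43 to 0.05 and the FLS2-like receptor kinase from -1.15 to 4.21.

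The starch synthesis probe sets that had a name did not pass the test in either direction. The paper counts more than 28 genes of starch metabolism on the array, so this list leaves out most of them. None of 5 probe sets was called in limma or in the analysis of variance, and none had an unadjusted p below 0.05 (lowest adjusted p = 0.542). Their median difference was -0.14 with the deposited values and 0.41 after cyclic loess. Granule-bound starch synthase I, the waxy protein that makes amylose, stood at 2.27, 1.86 and -0.43 at 14 DAA and 1.03, 1.28 and 0.17 at 7 DAA (difference 0.40, SE 0.88). A subunit of ADP-glucose pyrophosphorylase, which makes the sugar nucleotide that starch is built from (AGP-S), had 2.61, 1.72 and -0.13 at 14 DAA and 2.06, 2.22 and 1.26 at 7 DAA (difference -0.45, SE 0.63). In both, replicate 1 of 14 DAA was the highest and replicate 3 the lowest of the 6 arrays. As a list they were at 1.03, 1.28 and 0.17 at 7 DAA, at 2.27, 1.67 and -0.19 at 14 DAA and at -1.51, -1.41 and -1.36 at 28 DAA. Of 13 probe sets for sugar supply and glycolysis, 3 rose and 1 fell (median 0.05). Without replicate 2 of 14 DAA 0 rose and 2 fell, without replicate 3 of 14 DAA 1 rose and 0 fell, and without replicate 1 of 7 DAA 1 rose. Without replicate 1 of 14 DAA or replicate 2 of 7 DAA 2 fell. The one that fell was a cell wall invertase, which splits incoming sucrose (insoluble beta-fructofuranosidase), at 5.24, 0.46 and -0.27 at 14 DAA, against 5.98, 6.07 and 4.22 at 7 DAA (difference -3.61, SE 0.88, adjusted p = 0.00417). Its replicate 1 of 14 DAA lay within the 7 DAA range, and the call was lost without replicate 3 of 14 DAA (adjusted p = 0.059). Beta-amylases, which release maltose from starch, split by gene (median 2.52, and -1.94 after cyclic loess). The BMY1 probe set was called and the rest were not. The other 4 of the 5 probe sets had positive differences without overlap and no call (2.42 to 2.76). With the list median at -1.94 after cyclic loess, more than 1 of these 4 turned negative there. A partial beta-amylase sequence had 0.06, 0.29 and 0.04 at 14 DAA against -1.81, -1.67 and -4.42 at 7 DAA (adjusted p = 0.0753). Its difference was 2.76, and -2.62 after cyclic loess. The beta-amylase BMY1 fell, at 4.38, 0.17 and -0.33 at 14 DAA, against 3.98, 3.46 and 5.92 at 7 DAA (difference -3.04, adjusted p = 0.00905). Replicate 1 of 14 DAA did not follow, and this call was lost without replicate 2 (adjusted p = 0.0806) or 3 (0.0994) of 14 DAA and without replicate 3 of 7 DAA (0.0867).

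Embryo, oil body and desiccation genes rose in 11 of 14 probe sets and fell in none, with a list median of 4.29. Cyclic loess turned that median to -1.73, with 4 called lower. The list separated the 14 DAA arrays more than any other list: its median was -5.66, -1.98 and 0.05 at 14 DAA, against -6.34, -6.72 and -7.78 at 7 DAA, and 0.75, 0.78 and 0.72 at 28 DAA. Without replicate 1 of 14 DAA 11 were called and the median was 6.23. Without replicate 3 there were 6 calls (4.79% of all probe sets were higher) and a median of 2.64, with only the 9 C306 arrays 7 calls and with only the 6 arrays 3. Within the list 2 patterns were seen. Some members were above their 7 DAA levels in all 14 DAA arrays. The tonoplast aquaporin TIP3;1, a seed-type water channel, stood at -1.75, 0.57 and 0.71 at 14 DAA, against -5.64, -5.27 and -7.77 at 7 DAA (difference 6.07, SE 0.83, adjusted p = 7.28e-06). The peroxiredoxin PER1, an antioxidant of aleurone and embryo, had -1.57, 0.47 and 0.50 at 14 DAA, against -5.34, -5.14 and -8.13 at 7 DAA (difference 6.0, SE 0.89, adjusted p = 2.14e-05). LEA1, a late embryogenesis abundant protein, had -2.82, -0.35 and 0.18 at 14 DAA, against -5.82, -5.90 and -7.32 at 7 DAA (difference 5.35, SE 0.61, adjusted p = 6.98e-07). Other members were near the 7 DAA level in replicate 1, higher in replicate 2 and highest in replicate 3. The Em protein, the classical abscisic acid-induced protein of the wheat embryo, stood at -9.43, -3.60 and 0.05 at 14 DAA, against -9.68, -9.70 and -9.30 at 7 DAA. Its groups overlapped, and its call (difference 5.23, SE 1.39, adjusted p = 0.00807) was lost without replicate 3 of 14 DAA (difference 3.04, adjusted p = 0.123). The dehydrin Rab15 had -6.62, -2.04 and -0.07 at 14 DAA, against -7.26, -6.94 and -7.79 at 7 DAA (difference 4.42, adjusted p = 0.000234). EMH2, another Em protein, had 3 probe sets, all called. In 1 of them the 14 DAA arrays ran from -8.88 to -0.80, against -8.44 to -7.70 at 7 DAA, and its rise of 3.55 (adjusted p = 0.0353) became 5.69 without replicate 1 of 14 DAA and was lost without its replicate 2 (0.115) or 3 (difference 1.65, adjusted p = 0.371) and without replicate 1 (0.0618), 2 (0.0895) or 3 (0.0985) of 7 DAA. An oleosin, the coat protein of oil bodies, was not called, with -0.53, 0.34 and 0.79 at 14 DAA and -1.04, -0.99 and -2.54 at 7 DAA (adjusted p = 0.147), and the dehydrin WCOR410 differed by -0.16. After cyclic loess PER1 differed by -0.19, and Em, Rab15 and that EMH2 probe set were called lower (-3.52, -2.27 and -3.22).

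Defence genes moved in both directions. Of 10 probe sets 4 rose and 2 fell (median 0.17, and -0.87 after cyclic loess). The xylanase inhibitor XIP-I, which blocks fungal enzymes, stood at -4.94, 0.04 and 0.74 at 14 DAA, against -7.58, -7.95 and -6.57 at 7 DAA (difference 5.98, SE 0.98, adjusted p = 7.05e-05). Wheat germ agglutinin (WGA2), a chitin-binding lectin of the embryo, had -8.81, -1.86 and 0.56 at 14 DAA, against -9.05, -9.18 and -8.14 at 7 DAA (difference 5.42, SE 1.13, adjusted p = 0.001), a value of 8.14 without replicate 1 of 14 DAA and 3.45 without its replicate 3. After cyclic loess XIP-I and WGA2 were called lower (-1.25 and -3.37). As in the Em protein, WGA2 in replicate 1 of 14 DAA lay among the 7 DAA arrays. A chitinase II precursor, of the enzymes that cut chitin, fell, at 1.09, 0.00 and -0.10 at 14 DAA, against 3.21, 2.66 and 4.94 at 7 DAA (difference -3.28, SE 0.46, adjusted p = 1e-05). The beta-1,3-glucanase GIV was high at 14 DAA alone, with means of 1.07, 3.79 and -1.88 at 7, 14 and 28 DAA. Its rise of 2.72 (adjusted p = 0.0109) was lost without replicate 2 of 14 DAA (0.0556) and without replicate 3 of 7 DAA (0.067), while its fall from 14 to 28 DAA had an adjusted p of 3.11e-06. The non-specific lipid-transfer protein 2G, 1 of 2 called of 5 lipid transfer probe sets (median 1.34, with 1 call without replicate 2 or 3 of 14 DAA or replicate 3 of 7 DAA), had the same course, with means of -0.91, 3.89 and -0.06, a rise of 4.79 (adjusted p = 0.000583) and a later fall of 3.94 (adjusted p = 0.0036). Among 15 probe sets for peroxidases and antioxidants 4 rose and 3 fell (median 0.15). Without replicate 2 or 3 of 14 DAA 2 rose and 0 fell, without replicate 1 of 7 DAA 2 rose, and without replicate 3 of 7 DAA 0 fell. The glutathione transferase GSTZ1 stood at -0.43, 0.34 and 0.21 at 14 DAA, against -1.53, -1.34 and -1.60 at 7 DAA (difference 1.53, SE 0.21, adjusted p = 8.66e-06). The peroxidase Prx1 fell by 2.34 (adjusted p = 0.0102), a call lost without replicate 2 (0.0583) or 3 (0.06) of 14 DAA and without replicate 3 of 7 DAA (0.0818). None of 4 protease probe sets passed in limma or the analysis of variance, with 1 higher and 1 lower at an unadjusted p below 0.05 (median -0.29).

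Regulators and single genes outside the storage pathways also changed. Of 11 regulator probe sets 5 rose and none fell (median 1.75). The NAC factor annotated as CUP-SHAPED COTYLEDON 2 had the largest rise, 37.6-fold, at -0.60, 1.28 and 0.42 at 14 DAA, against -4.17, -3.96 and -6.48 at 7 DAA (difference 5.23, SE 0.87, adjusted p = 7.85e-05). The C-repeat binding factor TaCBF11, of a family known for the response to cold, had 0.29, 3.24 and 5.60 at 14 DAA, against -0.54, -0.15 and -0.46 at 7 DAA (difference 3.43, adjusted p = 0.00259, and 2.15 without replicate 3 of 14 DAA). Of 4 probe sets for gibberellin synthesis 1 rose, the gibberellin 20-oxidase GA20ox1d, by 0.73 (adjusted p = 0.0059), a call lost without replicate 2 (0.055) or 3 (0.0565) of 14 DAA. Another probe set of that gene differed by 0.26 (adjusted p = 0.435), and the list median was 0.23. This list leaves out the ent-copalyl diphosphate synthase, which makes a precursor of gibberellins. That gene was called higher in C306 and is described below with the difference from Sonalika. None of 4 tapetum probe sets, markers of the anther, passed in limma or in the analysis of variance, and none had an unadjusted p below 0.05 (median 0.06). Among translation genes 3 of 10 fell and none rose (median -0.25). The transcript annotated as 60S ribosomal protein L4-1 had the largest fall of any named probe set, 19.5-fold, at 4.43, 0.88 and -0.33 at 14 DAA, against 6.04, 5.50 and 6.30 at 7 DAA (difference -4.29, SE 0.70, adjusted p = 6.72e-05). Elongation factor TEF1 fell by 0.92 (adjusted p = 2.3e-05). A proline-rich protein annotated as DC2.15 stood at 1.12, -0.31 and -0.21 at 14 DAA, against 4.26, 2.63 and 5.63 at 7 DAA (difference -3.98, SE 0.64, adjusted p = 5.55e-05). S-adenosylhomocysteine hydrolase (SAHH), which recycles the product of methyl transfer, fell by 2.12 (adjusted p = 0.000206), and a putative lipoxygenase 3, an enzyme that oxidizes fatty acids, fell by 2.81 (adjusted p = 0.00108). Protein SRG1 rose by 4.27 (adjusted p = 0.00251), and PIMT, an enzyme that repairs aged proteins, rose by 3.14 (adjusted p = 0.000192). An ADP-ribosylation factor, a type of gene often used as a reference in wheat, differed by -0.12 (SE 0.15, adjusted p = 0.674), with 0.43, 0.01 and -0.20 at 14 DAA and 0.27, 0.37 and -0.03 at 7 DAA.

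The change in C306 was set against the same change in Sonalika, whose groups held 3 arrays each. In Sonalika 7526 probe sets (12.3%) were higher and 8986 (14.7%) lower at 14 DAA than at 7 DAA. The difference of the 2 changes, C306 minus Sonalika, passed the interaction test in 818 probe sets (1.34%), of which 357 (0.584%) were positive and 461 (0.754%) negative, and among the 334 named ones in 11 and 2. These counts moved with single arrays. Among the named ones they were 20 and 1 without replicate 1 and 10 and 10 without replicate 3 of C306 at 14 DAA, 7 and 1 without replicate 1 and 6 and 1 without replicate 2 of C306 at 7 DAA, 7 and 1 without replicate 3 of Sonalika at 14 DAA, and 7 and 1, 6 and 1, and 14 and 43 without replicate 1, 2 or 3 of Sonalika at 7 DAA. They were 8 and 1 without replicate 2 of C306 at 14 DAA, and 11 and 1, and 8 and 1, without replicate 1 or 2 of Sonalika at 14 DAA. The total was 341 without replicate 1 and 439 without replicate 2 of C306 at 7 DAA, 417 without replicate 2 and 350 without replicate 3 of Sonalika at 14 DAA, and 401, 304 and 1112 without replicate 1, 2 or 3 of Sonalika at 7 DAA. For the histones the median change was -2.49 in C306 and -2.69 in Sonalika, and none of the 18 passed (1 positive at an unadjusted p below 0.05, none in the analysis of variance). For the serpins the median change was 5.45 in C306 and 8.28 in Sonalika, with no serpin past the interaction test (3 negative at an unadjusted p below 0.05, none in the analysis of variance, and 1 negative with only the 12 arrays of C306 and Sonalika). For the embryo list it was 4.29 in C306 and 7.66 in Sonalika, and 1 of 14 passed, the EMH2 probe set. Without replicate 3 of C306 at 14 DAA 8 of the 14 passed, all negative, with a median difference of -3.73 in place of -2.58, and 0 passed without any other single array of the 12, after cyclic loess or in the analysis of variance. The prolamins had a median change of 2.13 in C306 and 6.94 in Sonalika, in which 55 of 61 were called higher. Of the 61, 56 are in the study's table, selected on these same arrays for large differences between good and poor varieties. C306 is a good and Sonalika a poor variety, so the prolamin differences between them given here are not independent evidence. None of the 61 passed the interaction test in limma or in the analysis of variance, while 50 were negative at an unadjusted p below 0.05. This count of 0 rested on 1 array: without replicate 3 of Sonalika at 7 DAA, which stood at -1.98 in the prolamin median beside -7.55 and -6.97, 36 of the 61 passed, all negative, with a median difference of -6.06 in place of -4.37. The levels at 14 DAA lay close together, with list medians of 1.01, 1.03 and 0.14 in C306 and 0.67, 1.00 and 1.08 in Sonalika, while at 7 DAA they were -0.58, -0.40 and -2.45 in C306 and -7.55, -6.97 and -1.98 in Sonalika, where replicates 1 and 2 lay below every C306 array and replicate 3 lay within the C306 range.

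Among the named genes past the interaction test, 3 are described here. The FLS2-like kinase and pTACR7 are in the study's table, selected on these same arrays for large differences between good and poor varieties. Their differences between C306 and Sonalika are thus not independent of that selection. A transcript annotated as the receptor-like kinase FLS2, in Arabidopsis the receptor for bacterial flagellin, stood in C306 at -1.15, 2.05 and 4.21 at 14 DAA, against -2.99, -2.49 and -2.95 at 7 DAA. In Sonalika the levels were -2.88, -3.12 and -2.93 at 14 DAA, against -0.09, 1.68 and -2.05 at 7 DAA. It rose by 4.52 in C306 (adjusted p = 0.000733) and fell by 2.82 in Sonalika (adjusted p = 0.0212). The ent-copalyl diphosphate synthase, which makes a precursor of gibberellins, had -0.25, 0.31 and 1.35 at 14 DAA, against -2.02, -1.68 and -1.45 at 7 DAA in C306. In Sonalika it had -0.25, -1.54 and -2.48 at 14 DAA, against 2.67, 2.55 and 2.26 at 7 DAA, and the difference of the changes was 6.10 (SE 0.90, adjusted p = 0.000493). Its rise of 2.18 in C306 alone was lost without replicate 3 of 14 DAA (adjusted p = 0.111) and without replicate 1 of 7 DAA (0.0652), whereas the difference of the changes stood in every leave-one-out fit. The transcript named pTACR7 did not pass in C306, at -2.11, -1.13 and -1.32 at 14 DAA and -1.44, -1.91 and -1.84 at 7 DAA, and in Sonalika was at 4.52, 5.62 and 5.43 at 14 DAA, against -0.65, -0.49 and -0.93 at 7 DAA (difference of the changes -5.67, SE 0.60, adjusted p = 2.92e-06). In C306 its level was 1.69 at 28 DAA, a rise of 3.21 over 14 DAA (adjusted p = 2.79e-06).

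**Figure D5:**
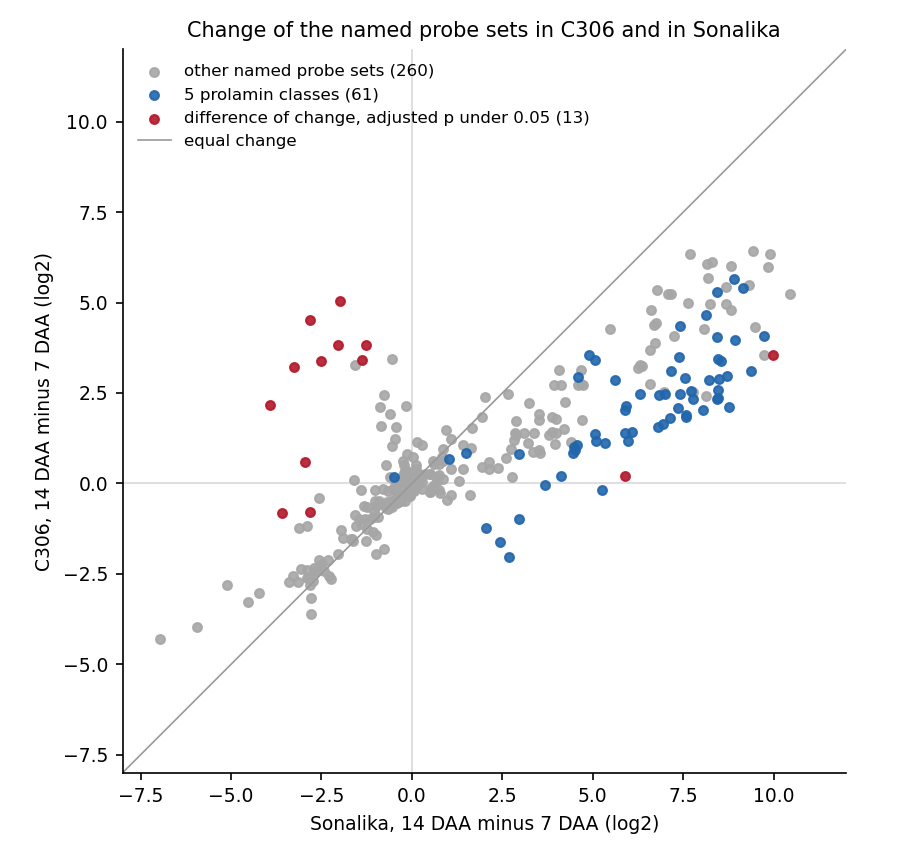
Change from 7 to 14 DAA (log2) of the 334 named probe sets in C306 (vertical axis) and in Sonalika (horizontal axis), with the line of equal change. The 13 probe sets whose difference of change was called are in red and the 61 prolamin probe sets, which had a median change of 2.13 in C306 and 6.94 in Sonalika (-1.36 in C306 after cyclic loess), in blue.

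The largest changes belonged to probe sets with no name in the tables used. The probe set with the largest rise stood at -1.91, 0.19 and 0.66 at 14 DAA, against -9.43, -9.66 and -10.7 at 7 DAA, a rise of 9.58 (SE 1.21, adjusted p = 2.44e-06). The next rose by 9.36 (adjusted p = 6.86e-07). The probe set with the largest fall stood at 5.06, 0.23 and -0.46 at 14 DAA, against 9.58, 9.26 and 9.78 at 7 DAA, and fell by 7.93 (SE 1.40, adjusted p = 0.000172), and the next fell by 7.66 (adjusted p = 7.88e-06). In all 4 the groups did not overlap and replicate 1 of 14 DAA was the array nearest to the 7 DAA levels.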

How the data were processed

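RNA of whole developing grain was hybridised to the Affymetrix wheat array, 1 biological replicate per array. The deposited values are log2 intensities that the authors normalised by RMA and centred on each probe set's median over the 36 arrays. Depth does not apply to arrays, and their number (3 per group) limits the precision.

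All 36 arrays were fitted in limma 3.58.1 (R 4.3.3) as 12 means of variety and stage, with no filter and no covariate, on 61179 probe sets after the 111 control probe sets were left out. C306 at 14 DAA minus C306 at 7 DAA and its difference from the same contrast in Sonalika were tested, with Benjamini-Hochberg adjustment over all probe sets and a threshold of 0.05. The residual degrees of freedom were 24 and those of the prior 3.56. No pair of the 6 arrays shared more than 0.177% of values. The scripts were tested on simulated data.

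The array annotation gave 1 gene symbol to 1273 probe sets and none to 60017. Of those symbols 200 were names rather than locus tags, and 1272 gene IDs matched the RefSeq table. Names also came from the function column of the study's table of 236 probe sets. Its values were not used. The members and lists (classes of prolamin, globulins, hardness proteins, serpins, inhibitors, thionins, beta-amylases, starch and sugar genes, histones, tubulins, photosynthesis genes, embryo, lipid transfer, peroxidases, proteases, defence, translation, regulators, gibberellin synthesis and tapetum) were chosen with earlier results of these data known. Genes were named if they were an ADP-ribosylation factor or gliadin probe set that the study measured by RT-PCR, among the 12 largest called rises or falls without overlap, among the 4 largest called or 2 smallest differences of a list, among the 2 largest unnamed changes each way, or among the 5 largest called differences from Sonalika each way. Other members named for their role, such as Dx5 and puroindoline b, were chosen after their values were seen.

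Alternatives were cyclic loess, quantile normalization, array centring and the filter of the methods, here set at the lowest 20 percent of the centred values. That filter ranked deviations from a probe set's own median, so it was no test of leaving out weakly expressed probe sets. Others used only probe sets without a suffix for shared probes, or analysis of variance without moderation. The rest were fits of fewer arrays, a replicate block and leaving out arrays. The list fits of 9 arrays and without the arrays labelled Lok1 7 DAA and WH291 14 DAA, 3 of the alternatives for the difference from Sonalika and the fit of C306 without replicate 3 of Sonalika at 7 DAA were added after seeing the data. Figures were drawn with matplotlib 3.10.9 in Python 3.11.15.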

Additional observations from a re-analysis of the deposited data

Results flagged for a closer look

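In 7 named probe sets the change between 7 and 14 DAA differed between C306 and Sonalika by limma's interaction test, and each value here is the C306 change minus the Sonalika change on the log2 scale. Names came in part from the study's table, selected on these same arrays for differences between good and poor varieties. It includes the FLS2-like kinase and pTACR7, whose results here are not independent of that selection. The FLS2-like receptor kinase had 7.34 (SE 1.29, adjusted p = 0.00347) and the putative protein phosphatase 2C 64 had 7.01 (SE 1.34, adjusted p = 0.00656). The phosphatase stood at -0.21, 3.02 and 5.08 at 14 DAA, against -2.16, -2.48 and -2.56 at 7 DAA in C306, and at -1.82, -2.65 and -2.15 at 14 DAA, against -0.15, 1.48 and -2.02 at 7 DAA in Sonalika. In both genes the C306 arrays of 14 DAA were far apart and did not overlap those of 7 DAA.

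A universal stress protein A-like gene had 6.46 (SE 1.32, adjusted p = 0.0107) and, in a probe set with shared probes, 5.89 (SE 1.35, adjusted p = 0.024). Its first probe set was at -2.82, 2.64 and 4.05 at 14 DAA, against -2.55, -1.97 and -1.24 at 7 DAA in C306, where replicate 1 of 14 DAA was the lowest of the 6 arrays. With only the 12 arrays of C306 and Sonalika in the fit neither probe set passed (adjusted p = 0.0915 and 0.16), and after cyclic loess the second did not (0.0631). The second probe set also missed the threshold without replicate 2 (adjusted p = 0.0665) or 3 (0.0517) of C306 at 14 DAA, replicate 1 (0.0741) or 2 (0.0587) of C306 at 7 DAA, replicate 2 (0.0537) or 3 (0.07) of Sonalika at 14 DAA and replicate 2 of Sonalika at 7 DAA (0.068).

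The ent-copalyl diphosphate synthase had 6.10 and pTACR7 had -5.67, and both passed under all alternatives run for this difference. The embryo protein EMH2 had -6.43 (SE 1.66, adjusted p = 0.0474), with -8.88, -4.16 and -0.80 at 14 DAA, against -7.70, -8.36 and -8.44 at 7 DAA in C306, and 0.80, 1.98 and 1.87 at 14 DAA, against -8.90, -7.57 and -8.83 at 7 DAA in Sonalika. It missed the threshold without any single array other than replicate 3 of C306 at 14 DAA (adjusted p = 0.0535 to 0.122), and also with only the 12 arrays (0.135), after cyclic loess (0.12) and in the analysis of variance (0.0813). With the deposited values this EMH2 probe set rose in both varieties. In C306 its replicate 1 of 14 DAA lay below every 7 DAA array. The C306 difference of 3.55 became -3.22 after cyclic loess and 0.59 after quantile normalization.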

How the results depend on the processing

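The 10456 calls became 6760 with only the 6 C306 arrays. Calls of higher level (4180) became 2669 without probe sets that share probes, 2444 with 6 arrays and 2619 to 4890 without single arrays. The 362 10-fold rises became 116 under cyclic loess, 217 without shared probes, 228 with 6 arrays and 213 after quantile normalization, and the 160 10-fold falls became 118 to 277 without single arrays (277 without replicate 1 of 14 DAA). The labels do not say whether arrays of equal replicate number were paired. The correlation of their deviations was 0.02, 0.13 and 0.12 in C306, which cannot decide it with 3 arrays per group. With the replicate block there were 5407 calls, 2041 higher, 3366 lower and 214 10-fold rises. The difference from Sonalika (818) was called in 541 by analysis of variance, 1333 with 12 arrays, 2132 after quantile normalization, 1487 without the 6 arrays labelled Lok1 7 DAA and WH291 14 DAA, 906 with the replicate block in 12 arrays (where the FLS2-like kinase, the phosphatase, both universal stress protein probe sets and EMH2 had adjusted p = 0.0527, 0.0685, 0.06, 0.111 and 0.145) and 304 to 1112 without single arrays. Its positive calls (357) became 601, 1110 and 714 in the fits of 12 arrays, quantile and without those 6 arrays, and 142 to 510 without single arrays. Its negative calls (461) became 296 by analysis of variance, 300 without shared probes, 732, 1022 and 773 in those 3 fits, and 162 to 602 without single arrays. List members called higher (61) became 28 under cyclic loess, 100 with 9 arrays, 30 without shared probes and 38 to 66 without single arrays (38 without replicate 2 of 14 DAA), and those called lower (37) became 18 without shared probes. Fits without shared probes test fewer probe sets. The cause of the other moves was not tested.

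Of 85 probe sets examined singly, 70 were called. Of these 20 kept their call in every alternative and 25 lost it without at least 1 of the 6 arrays. Cyclic loess turned 18 differences. They became -2.62 for the partial beta-amylase, -0.52 and -2.15 for the HMW glutenins 1By9 and Dx5, -0.71 for the LMW glutenin, -0.41, -1.43 and -2.90 for alpha-gliadin probe sets, -0.84 and -1.09 for gamma-gliadins, -0.32 for an avenin-like protein, -1.0 for triticin, -0.88 for puroindoline b, -0.19 for PER1, -2.27 for Rab15, -3.52 for Em, -3.22 for EMH2, -1.25 for XIP-I and -3.37 for WGA2. The 87 probe sets with a mean over the arrays between -3 and -2 had a median difference of 6.0 with the deposited values and -0.8 after cyclic loess. For the 59106 with a mean between -0.5 and 0.5 the medians were -0.01 and 0.01. That mean is of values centred by probe set and so is not an expression level. Its part in these turns was not tested. Quantile normalization turned an ERD6-like sugar transporter (-0.17) and pTACR7 (-0.65). Leaving out 1 array turned 4 differences that were not called, with ranges of -0.26 to 0.91 for AGA.1 of ADP-glucose pyrophosphorylase, -0.12 to 1.23 for granule-bound starch synthase, -1.05 to 0.32 for AGP-S and -0.30 to 0.02 for the ADP-ribosylation factor. Centring the arrays changed no call.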
